A study of Mus musculus with 3 samples.

Results

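Collagen-high fibroblasts carrying transcripts of Igfbp2, Grem1, Cdh4, Cpz and C1qtnf3 made up 526 of the 13214 fibroblasts profiled from dorsal mouse skin. A fibroblast was taken as a cell with at least 500 detected genes, at most 10% mitochondrial UMIs (unique molecular identifiers, 1 per captured transcript), at least 1% of its UMIs on Dcn, Lum, Col1a1, Col1a2 and Col3a1 together, and no UMI of Ptprc, Epcam or Cdh5, which mark leukocytes, epithelium and endothelium. It was a member of the population when at least 3 of the 5 genes Igfbp2, Grem1, Cdh4, Cpz and C1qtnf3 had 1 or more UMIs. Members were thus chosen by their detection of these 5 genes, and as fibroblasts by the gate genes, so every comparison of members with the other 12688 fibroblasts is a description without a test. All 3 libraries came from wild type C57BL/6J mice labelled female, aged 8 weeks at the start. The unexposed control (CON) was set against skin exposed every other day for 12 weeks to UVA of 0.60 mW/cm2 combined with 3.5 mW/cm2 of UVB (UV), and against skin given the same irradiation followed each time by 1.5% ruxolitinib ointment (Rux). Ruxolitinib inhibits the kinases JAK1 and JAK2. Skin was taken the day after the last exposure and profiled by droplet 3' single-cell RNA-seq, with 1 library per condition, and the number of mice behind a library is not given in the sources used here.

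With 1 library per condition, no difference between conditions has a replicate check, no test was run, and the 95% intervals given (exact binomial, Poisson or conditional binomial) cover counting error only. The CON, UV and Rux matrices held 13170, 12411 and 11287 barcodes with 165337289, 133972374 and 131570327 UMIs, of which 11453, 11027 and 9897 cells passed the filter and 3283, 5160 and 4771 were fibroblasts. Xist, the transcript of the inactive X chromosome, stood at 0.117, 0.107 and 0.101 CPM (a gene's UMIs scaled to a common total of UMIs) over the cells that passed in CON, UV and Rux, and had no UMI in any member. The Y-linked gene Ddx3y stood at 110, 116 and 122 CPM in the same cells. The sex label is thus at odds with the counts in all 3 libraries alike. Barcodes shared between libraries numbered 50 for CON and UV, 28 for CON and Rux and 40 for UV and Rux, and none was shared between members. Members were deeper than the other fibroblasts, with median UMIs per cell of 10873, 13598.5 and 15916 against 5551, 6968.5 and 9548. Scrublet marked 23, 7 and 10 members as possible doublets, and these were left in the main values.

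Fibroblasts of the dermis build the matrix of the skin: they secrete type I and type III collagen, assemble elastic fibres and signal to the epidermis and hair follicles. Igfbp2 encodes a secreted protein that binds insulin-like growth factors and Grem1 a secreted antagonist of bone morphogenetic proteins (BMPs). Cdh4 encodes R-cadherin, an adhesion molecule, Cpz a secreted carboxypeptidase with a Frizzled-like domain that binds Wnt proteins, C1qtnf3 a secreted protein of the C1q and tumour necrosis factor superfamily, and Eln the elastin of elastic fibres.

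In GRCm38, the build of the gene models used here, Igfbp2 lies at chr1:72824503-72852474 on the plus strand and Grem1 at chr2:113746164-113758646 on the minus strand. Because the population is named for these genes, the 250 bases before their RefSeq start sites (build GRCm38.p6) are shown 5' to 3' on the gene's strand, at chr1:72824230-72824479 for Igfbp2, for which RefSeq lists 2 start sites, and at chr2:113758649-113758898 for Grem1. Capitals mark GGGCGG, the core of a GC box, on either strand.
Igfbp2: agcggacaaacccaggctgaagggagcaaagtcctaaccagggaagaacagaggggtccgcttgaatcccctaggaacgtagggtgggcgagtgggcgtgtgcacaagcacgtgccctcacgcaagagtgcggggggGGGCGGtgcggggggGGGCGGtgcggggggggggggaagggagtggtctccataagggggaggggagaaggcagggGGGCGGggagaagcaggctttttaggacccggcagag
Grem1: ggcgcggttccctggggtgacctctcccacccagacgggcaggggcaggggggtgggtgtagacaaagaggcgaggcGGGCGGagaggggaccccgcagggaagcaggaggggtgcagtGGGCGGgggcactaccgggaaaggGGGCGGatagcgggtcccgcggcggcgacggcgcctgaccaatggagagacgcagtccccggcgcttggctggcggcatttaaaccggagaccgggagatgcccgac
Both windows were rich in G and C, at 67.2% and 72%, and each held 3 copies of GGGCGG. The Cpz window held 1 copy and the C1qtnf3 window none, and 32.7% of 32851 mouse promoter windows of the same length held at least 1. Among these 4 windows, TATAAA was found once, before C1qtnf3, and in 12.4% of all windows. CCAAT was found once in the Grem1 window and in 33.8% of all windows, and no copy of TGANTCA, the core of an AP-1 site, was found in any of the 4 (6.75% of all windows hold one). These matches describe the sequences and say nothing about which factors bind them. No window was listed for Cdh4 or Eln.

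Members were most frequent in the control library and least frequent in the UV library. They numbered 267 in CON, 70 in UV and 189 in Rux, which is 8.13% (7.22 to 9.12), 1.36% (1.06 to 1.71) and 3.96% (3.43 to 4.55) of fibroblasts. As a share of all cells that passed the filter they were 2.33%, 0.635% and 1.91%. The 3 intervals of the fibroblast shares did not overlap. After each fibroblast was thinned to 3000 UMIs, which left out 619, 826 and 464 shallower cells, the shares were 4.88%, 0.300% and 1.58%, again in the order CON, Rux, UV. Fewer such cells and a lower level of the rule genes within them cannot be told apart by a share of this kind.

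**Figure D1:**
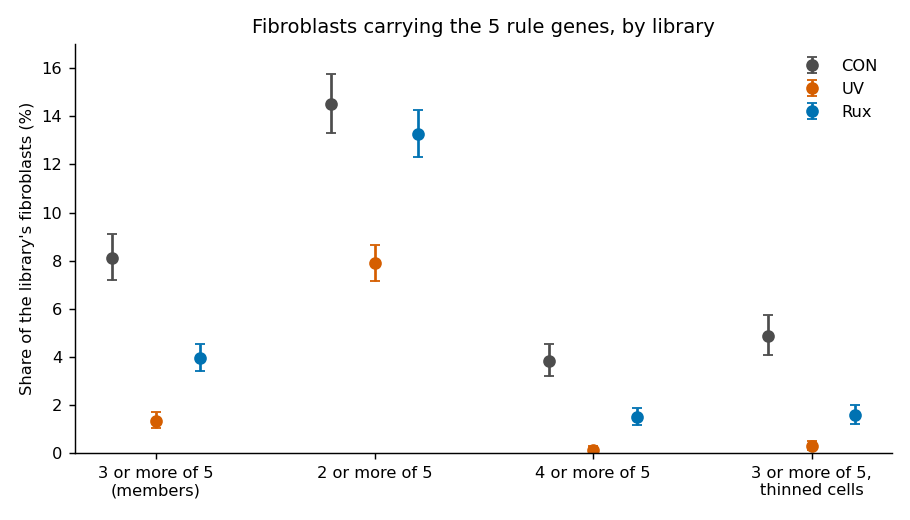
Share of fibroblasts that were members or met other settings of the rule (vertical axis, percent) in the CON, UV and Rux libraries: at least 3, 2 or 4 of the 5 genes, and at least 3 after thinning every cell to 3000 UMIs. Points are shares and bars exact 95% binomial intervals for counting error, and CON is highest and UV lowest in each (8.13%, 1.36% and 3.96% for members).

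The name fits the CON and Rux members better than the UV members. Igfbp2 had a UMI in 37.1% of CON, 17.1% of UV and 54.5% of Rux members, and Grem1 in 58.4%, 17.1% and 38.6%. Cpz was carried by 92.1%, 95.7% and 95.2% of members, C1qtnf3 by 78.3%, 95.7% and 94.7%, and Cdh4 by 94.4%, 88.6% and 64.0%. The UV members thus met the rule mainly through Cdh4, Cpz and C1qtnf3. Free RNA can give single UMIs in any cell, and leukocytes should lack both naming genes. In cells with a Ptprc UMI (764, 703 and 1251 cells with median UMIs of 6612.5, 6520 and 6308), Igfbp2 was detected in 4.06%, 0.711% and 2.96% and Grem1 in 3.14%, 0.427% and 0%. Among the other fibroblasts Igfbp2 was detected in 4.41%, 2.18% and 4.52% and Grem1 in 0.962%, 0.216% and 0.371%, which for Grem1 in CON and UV lies below the leukocyte share. Cdh4 was detected in 5.63%, 3.13% and 1.52% of the Ptprc cells and 5.64%, 4.07% and 4.69% of the other fibroblasts. For Cpz the shares were 1.70%, 0.996% and 1.28% against 7.36%, 16.0% and 15.6%. For C1qtnf3 they were 2.23%, 1.71% and 2.96% against 19.4%, 21.8% and 27.6%. Igfbp2 was detected in 3.34%, 26.7% and 27.3% and Cdh4 in 40.4%, 11.7% and 8.75% of the 629, 180 and 297 keratinocytes, taken as cells below the fibroblast gate with at least 1% of UMIs on Krt5 and Krt14 (median UMIs of 12452, 19714 and 17339). The Igfbp2 share of UV keratinocytes thus exceeded the 17.1% of UV members.

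In summed counts of the members, Igfbp2 stood at 1003 CPM (969 to 1039) in CON, 445 (404 to 488) in UV and 2041 (1992 to 2091) in Rux, against 58.6, 30.7 and 28.4 in the other fibroblasts. In these pooled sums Rux members were the highest and UV members the lowest, and the intervals did not overlap. Within the 99, 12 and 103 members that had an Igfbp2 UMI, Igfbp2 stood at 2627, 2518 and 3562 CPM, so CON and UV were close. Igfbp2 was not particular to members: fibroblasts outside the population with at least 2 of Ednrb, Lrrc15 and Col11a1 held it at 727, 554 and 314 CPM, which in UV exceeds the members, and those with at least 2 of Coch, Crabp1 and Dkk2 at 215, 242 and 230. Grem1 in the same cells stood at 4.73, 0.532 and 0.299 CPM and at 0, 0 and 2.98. Among members with at least 4 rule genes, of which UV had 8, the log2 ratio of UV over CON for Igfbp2 was 0.64 in place of -1.17. In members Grem1 followed another order, at 368 CPM (347 to 390) in CON, 80.4 (63.8 to 99.9) in UV and 141 (128 to 155) in Rux, against 3.00, 0.456 and 0.480 in the other fibroblasts. Within the 156, 12 and 73 members that had a Grem1 UMI, Grem1 stood at 667, 450 and 382 CPM, so UV was not below Rux. Cdh4 was highest in CON, at 425 CPM, and stood at 178 in UV and 158 in Rux, where the intervals of 153 to 206 and 144 to 172 overlapped. Cpz stood at 342, 262 and 231 CPM, with UV and Rux again overlapping (231 to 296 and 214 to 248). C1qtnf3 ran the other way, at 269, 361 and 827 CPM. In members with no UMI of Igfbp2 or Grem1, which all carry C1qtnf3 by the rule, it did not rise, at 358, 362 and 316 CPM. Eln, which the rule did not use, stood at 192 CPM (178 to 208), 541 (496 to 588) and 1975 (1926 to 2024) in members against 164, 155 and 185 in the other fibroblasts. It thus set members apart from the pooled other fibroblasts in UV and Rux by log2 ratios of 1.81 and 3.42 but in CON by only 0.23. Fibroblasts outside the population with at least 2 of Thbs4, Cilp and Col8a1 held Eln at 331, 301 and 347 CPM. That is above the members in CON and below them in UV and Rux.

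**Figure D2:**
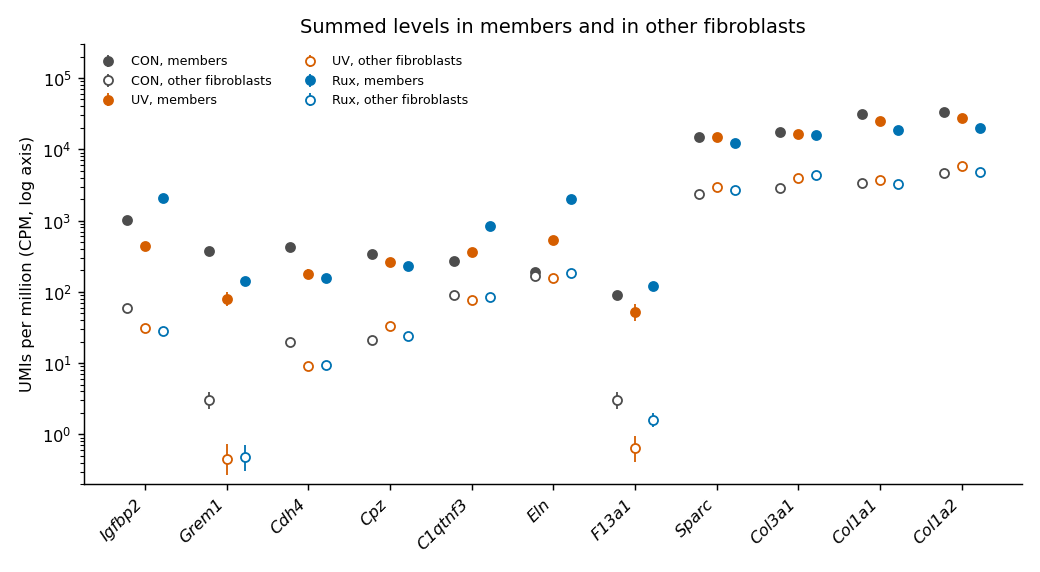
Summed level (CPM, log axis) of the rule genes, Eln, F13a1, Sparc and 3 collagen genes in members (filled) and in the other fibroblasts (open) of the CON, UV and Rux libraries, with exact 95% Poisson intervals. Igfbp2 and Grem1 are lowest in the UV members, and Eln runs from 192 CPM in CON members to 1975 in Rux members.

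Members carried far more type I and type III collagen than the other fibroblasts. Both groups had passed the same gate on Col1a1, Col1a2, Col3a1, Dcn and Lum, and the collagen share of a cell is the part of its UMIs on the 3 collagen genes. The median share was 7.26%, 4.76% and 4.32% in members of CON, UV and Rux and 0.476%, 0.709% and 0.581% in the other fibroblasts. Only 27 (0.895%), 157 (3.08%) and 113 (2.47%) of the other fibroblasts reached the median of their library's members. Just outside the threshold, cells with 2 of the 5 rule genes (209, 337 and 444 cells) had median collagen shares of 2.12%, 1.95% and 1.50%. Just inside it, cells with 3 (141, 62 and 117 cells) had 6.50%, 4.42% and 3.56%. Cells with 4 rule genes reached 8.39%, 8.15% and 5.31%, the UV value resting on 6 cells, while cells with none of the 5 had 0.411%, 0.601% and 0.423%. Cells with all 5 (35, 2 and 17 cells) had 7.66%, 6.59% and 5.73%, below the cells with 4 in CON and UV.

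**Figure D3:**
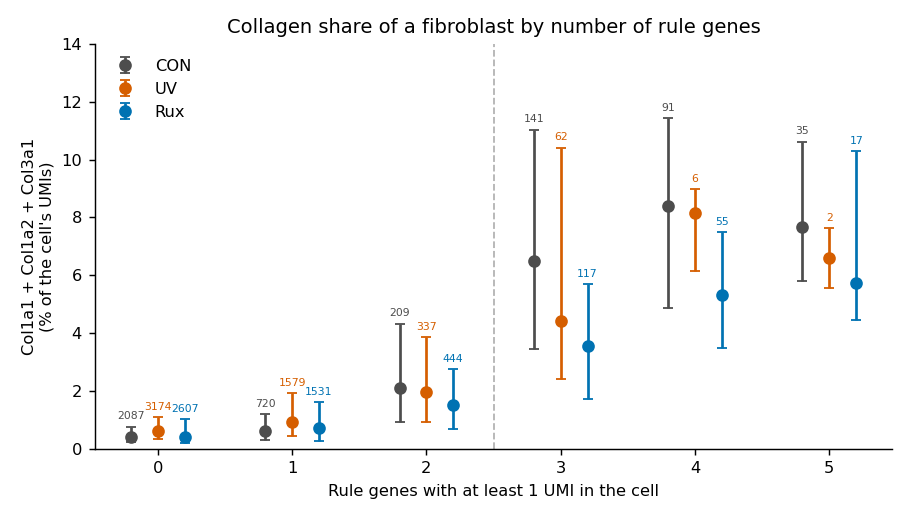
Median share of a fibroblast's UMIs on Col1a1, Col1a2 and Col3a1 (vertical axis, percent) by the number of the 5 rule genes detected in it (horizontal axis), for CON, UV and Rux. Points are medians over cells, bars reach from the lower to the upper quartile, printed numbers are cells, and the dashed line marks the rule's threshold. The median is below 1% in cells with none and above 3.5% in cells with 3, the number that admits a member.

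Each collagen gene of the gate was higher in members, and its order over the libraries differed from that of the other fibroblasts. Col1a1 stood at 31668, 24972 and 18430 CPM in members and at 3333, 3726 and 3263 in the other fibroblasts of CON, UV and Rux. Members were thus highest in CON and lowest in Rux, while in the other fibroblasts UV was highest. Col1a2 showed the same order in members, at 32789, 27502 and 20160 CPM, and Col3a1 a flatter one, at 17322, 16242 and 15817 CPM. Fibroblasts outside the population with at least 2 of Ednrb, Lrrc15 and Col11a1 held Col1a1 at 10151, 8938 and 6403 CPM. These were the highest of 8 such gene sets in each library, above the pooled other fibroblasts and below the members. Of the 10 fibrillar collagen genes listed, 8 were measured at 10 CPM or more, and 5 of the 8 were at least 2-fold higher in members in each library, though not the same 5. Col1a1, Col1a2 and Col3a1, gate genes, and Col5a1 (616, 672 and 726 CPM against 242, 280 and 256) passed in all 3 libraries. Col5a2 passed in CON, and Col11a1 in UV and Rux, standing at 46.0, 133 and 98.0 CPM against 74.2, 57.2 and 48.1, and at 73.1 in UV and 79.1 in Rux without the top cell of each, which is under 2-fold and leaves 4 of the 8 there. The other measured genes, Col5a3 and Col27a1, passed in no library. Col5a3 stood at 37.2, 87.3 and 89.1 CPM against 67.0, 86.4 and 198, at least 2-fold lower in Rux. Col27a1 stood at 12.6, 26.8 and 15.8 CPM against 27.2, 28.5 and 27.4, at least 2-fold lower in CON. With the gate genes included, the list's median log2 ratio was 1.26, 1.24 and 1.27, where the median of all genes measured was -0.06, -0.03 and 0.00 and 4.25%, 4.22% and 4.82% of them were at least 2-fold higher. Enzymes and chaperones of collagen assembly were higher by less: 20 of 25 measured genes were higher in members in each library, with list medians of 0.55, 0.29 and 0.33. Serpinh1, the collagen chaperone HSP47, stood at 1262, 1005 and 808 CPM against 526, 467 and 470, and the procollagen peptidase gene Adamts2 at 767, 989 and 1053 against 316, 480 and 525.

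Counting the rule and gate genes, 59 genes were at least 2-fold higher in members than in the other fibroblasts in all 3 libraries (1.75% of 3378 genes with sufficient counts) and 75 were at least 2-fold lower (2.22%). Among those named next, the excess of Grem1, Cdh4, Igfbp2 and Cpz follows from the rule, and Col1a1 and Col1a2 are gate genes. The 15 whose smallest excess over the 3 libraries was largest were Grem1, Cdh4, Igfbp2, Pappa, Cpz, Ndufa4l2, Cdkn2a, Col1a1, Ctla2a, Lgr5, Sema3a, Sparc, Cyp26b1, Cpe and Col1a2. Pappa, a metalloproteinase that cleaves insulin-like growth factor binding proteins, stood at 84.1, 65.5 and 360 CPM in members of CON, UV and Rux against 9.75, 7.62 and 14.1. Cdkn2a, which encodes the cell cycle inhibitors p16 and p19, stood at 164, 54.6 and 131 CPM against 27.8, 6.52 and 16.0, with UV lowest on both sides. Lgr5, a receptor for R-spondins, stood at 161, 115 and 123 CPM against 30.3, 23.4 and 13.2. Sparc, a collagen-binding matricellular protein, was among the abundant genes, at 15066, 14862 and 12250 CPM against 2382, 2998 and 2696. Cyp26b1, which degrades retinoic acid, stood at 375, 152 and 326 CPM, and Sema3a, a secreted axon guidance cue, at 197, 135 and 380, so both were lowest in UV. For Sema3a this order held only in the pooled members. It stood at 44.5, 20.8 and 19.8 CPM in members with no UMI of Igfbp2 or Grem1. In members with Igfbp2 it stood at 407, 618 and 635. Ctla2a, related to the propeptides of cysteine proteases, ran from 1807 to 2375 and 3712 CPM against 141, 139 and 698.

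The 5 genes whose smallest deficit over the 3 libraries was largest were Coch, Chrdl1, Smpd3, Mgp and Inmt. Coch, which encodes the secreted protein cochlin, stood at 2.84, 0.992 and 10.2 CPM in members against 79.7, 252 and 135. Mgp, an inhibitor of matrix calcification, stood at 16.1, 79.4 and 128 CPM against 683, 473 and 763. Both were low in members of every library, though Mgp and the methyltransferase gene Inmt (7.56, 113 and 53.5 CPM against 457, 646 and 679) were less depleted in UV and Rux than in CON. Secreted inflammatory genes were also low: of 22 measured, 15, 14 and 13 were at least 2-fold lower in members of CON, UV and Rux (5.56%, 4.44% and 3.83% of all genes), with list medians of -2.02, -1.29 and -1.46. Cxcl1, a neutrophil chemokine, stood at 642, 1282 and 1282 CPM against 4623, 3812 and 4545. Complement C3 stood at 96.7, 543 and 254 CPM against 894, 2267 and 1770.

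The pathways of the naming genes were uneven. Of 12 measured genes of the insulin-like growth factor axis, 3, 3 and 4 were at least 2-fold higher and 3, 2 and 4 at least 2-fold lower in members of CON, UV and Rux, with medians of 0.15, 0.12 and 0.29. Over all genes measured, 4.25%, 4.22% and 4.82% were at least 2-fold higher and 5.56%, 4.44% and 3.83% lower. The counts of these lists include the rule genes Igfbp2, Grem1 and Cpz, whose excess in members the rule fixed. Stc1, which encodes stanniocalcin, an inhibitor of the Pappa protease, stood at 85.4, 20.8 and 22.9 CPM against 2.2, 0.9 and 0.9, while Igfbp3 stood at 65.5, 238 and 165 CPM against 534, 606 and 710. Of 24 genes of the BMP axis, 8, 4 and 5 were at least 2-fold lower in members, and other than the rule gene Grem1, 0 were at least 2-fold higher in CON and UV and 1, Id1, in Rux. Id1, a target of BMP signalling, stood at 104, 63.5 and 73.6 CPM against 73.7, 35.0 and 28.4. Of 17 genes of the Wnt axis, 7, 7 and 10 were at least 2-fold higher and 4, 5 and 3 at least 2-fold lower in members, with medians of 0.72, 0.77 and 1.43. Axin2, Nkd1 and Nkd2, feedback targets of Wnt signalling, stood at 24.3, 24.6 and 44.1 CPM in CON members against 3.5, 5.1 and 10.8, and at 24.1, 22.6 and 55.7 in Rux members against 2.2, 2.5 and 5.3. In UV members they stood at 9.9, 16.9 and 21.8 CPM against 2.1, 4.5 and 6.8, the smallest values of the 3 libraries.

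Members divided by whether they carried Igfbp2 or Grem1. Those with no UMI of either had to carry Cdh4, Cpz and C1qtnf3, and they numbered 83 of 267 in CON (31.1%), 51 of 70 in UV (72.9%) and 54 of 189 in Rux (28.6%). As a share of fibroblasts, members without either gene were 2.53% (2.02 to 3.12), 0.988% (0.737 to 1.30) and 1.13% (0.851 to 1.47). Members with either gene were 5.60% (4.84 to 6.45), 0.368% (0.222 to 0.574) and 2.83% (2.38 to 3.34). The intervals of UV and Rux overlapped for members without either gene and did not for members with one. Median UMIs per cell were 13023, 13223 and 15467 without and 10416, 15494 and 16193 with, so members with either gene were shallower in CON and deeper in UV and Rux. Collagen was high in both, at median shares of 7.98%, 5.34% and 3.64% without and 7.14%, 4.26% and 4.54% with.

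A set of genes that the rule did not use went with Igfbp2 or Grem1 inside the population. F13a1, which encodes the A subunit of the crosslinking enzyme factor XIII, was chosen after its values were seen: it stood at 1.9 CPM without and 134 with in CON, 11.1 and 154 in UV, and 0 and 162 in Rux. Sema3a stood at 44.5 and 275 CPM in CON, 20.8 and 423 in UV, and 19.8 and 510 in Rux. Col7a1, the collagen of anchoring fibrils beneath the epidermis, stood at 10.2 and 86.4, 2.8 and 136, and 4.7 and 138 CPM. In every library these genes were carried by the members with Igfbp2 or Grem1 and were near 0 or low in the rest. Apcdd1, an inhibitor of Wnt signalling, also chosen after its values were seen, stood at 94.5 and 302 CPM in CON, 51.3 and 206 in UV and 44.4 and 210 in Rux. Col11a1 and Tnc were higher in members with either gene too, but in UV 46.3% and 43.6% of their member UMIs came from 1 cell. Ctla2a ran the other way, at 2654 without and 1371 with in CON, 3026 and 734 in UV, and 5769 and 2971 in Rux. When members were split on Igfbp2 alone, F13a1 stood at 230 CPM in members with Igfbp2 and 1.53 in those without in CON, 225 and 14.5 in UV, and 208 and 0 in Rux. Split on Grem1 alone, it stood at 160 and 1.41 CPM in CON, 245 and 9.67 in UV, and 140 and 107 in Rux, so the 2 splits were alike in CON and UV and differed in Rux.

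**Figure D4:**
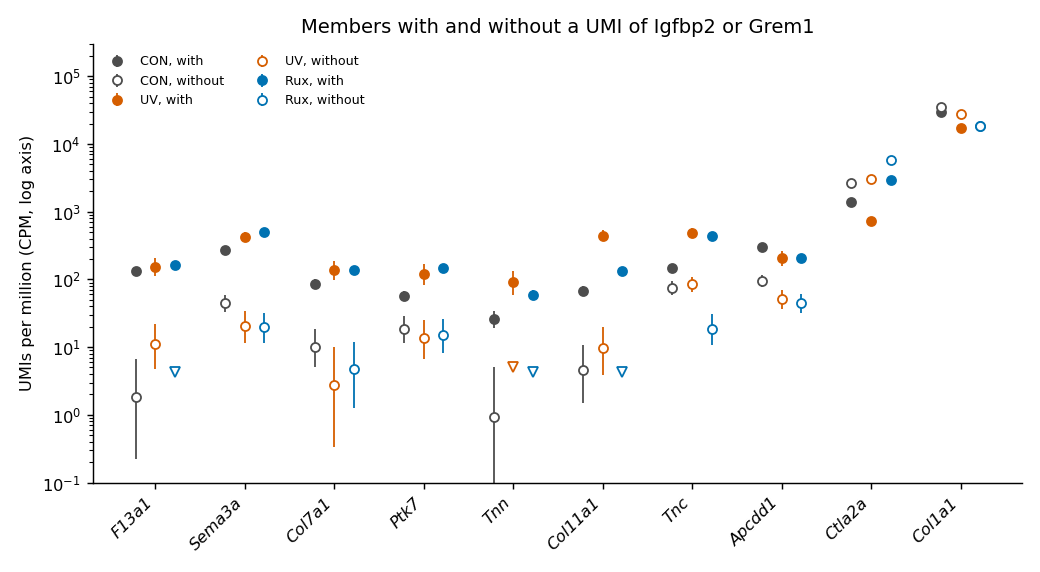
Summed level (CPM, log axis) of genes in members with a UMI of Igfbp2 or Grem1 (filled) and without (open), for CON, UV and Rux, with exact 95% Poisson intervals; open triangles mark 0 UMIs at the upper 95% bound. F13a1 is 134, 154 and 162 CPM with either gene and 1.9, 11.1 and 0 without, and Ctla2a is higher without.

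In members, more genes were at least 2-fold apart between UV and CON than between Rux and UV. UV over CON was at least 2-fold higher for 215 genes in members (6.47% of 3321) and at least 2-fold lower for 106 (3.19%), against 2.14% and 1.54% in the other fibroblasts, whose sums are deeper and carry less counting error. Rux over UV was at least 2-fold higher for 80 genes (2.37% of 3370) and lower for 79 (2.34%), against 0.752% and 1.29% in the other fibroblasts. Rux over CON was at least 2-fold higher for 236 genes (6.99% of 3376) and lower for 119 (3.52%), against 3.07% and 2.89%. The first pair of comparisons uses the same UV library of 70 members. The 2 kinds of member mostly shared their direction. Fewer of the genes past 2-fold in all members were past it within a kind. Of the 215 genes higher in UV, 171 were at least 2-fold higher among members without Igfbp2 or Grem1, 157 among members with either and 116 among both. The same sign was found for 215 and 207. Of the 106 genes lower in UV, 68, 61 and 36 were at least 2-fold lower, with the same sign in 101 and 104. Of the 80 genes higher in Rux over UV, 36, 38 and 18 were at least 2-fold higher, with the same sign in 67 and 79, and of the 79 lower, 47, 44 and 24 were, with the same sign in 75 and 73. The kinds make up the sums they are set against here. Over all genes with sufficient counts in members without either gene, 192 of 2948 were at least 2-fold higher and 97 lower in UV over CON. For Rux over UV, 72 of 2647 were higher and 61 lower. The part of the mix in single ratios was not tested.

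The 10 genes highest in UV over CON among members were Arhgap20, Inmt, G530011O06Rik, Depdc5, Plac8, Prg4, Sdk1, Ptx3, Sulf1 and Fabp4, with log2 ratios from 3.88 to 2.81. Among members with at least 4 rule genes, of which UV had 8, Arhgap20 and Plac8 turned direction. Prg4, the lubricating proteoglycan lubricin, had a ratio of 3.29 (2.97 to 3.64) in members and 2.10 in the other fibroblasts. Ptx3, a pentraxin of innate immunity, had 2.85 (2.51 to 3.20) against 0.83, and Sulf1, an enzyme that removes sulphate from heparan sulphate, 2.82 (2.57 to 3.09) against 0.84. In UV 79% of the Depdc5 UMIs and 55.2% of the Fabp4 UMIs of members came from 1 cell each. With the top cell left out of each library, their ratios were 1.41 in place of 3.47 and 2.23 in place of 2.81. The 10 lowest were AW112010, Saa3, Ccl19, Rorb, Aldh3a1, Tex14, Cxcl10, Grem1, Chmp4c and Hes1. Hes1, a target of Notch signalling, stood at 639, 149 and 316 CPM in members of CON, UV and Rux, and Aldh3a1, an aldehyde dehydrogenase, at 103, 13.9 and 103. Cxcl10, an interferon-induced chemokine, stood at 122, 24.8 and 50.4 CPM, and at 10.1 in UV without the 1 cell that held 60% of its UMIs there. Ccl19 (573, 56.6 and 93.1 CPM) has near-identical gene copies in mouse, which could affect its count. For Saa3 (188, 11.9 and 225 CPM), 1 cell in each library held 27.5%, 66.7% and 56.1% of the UMIs.

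For Rux over UV, the 10 highest genes in members were Saa3, Aldh3a1, Pappa, Igfbp2, Mmp11, Thbs4, Akap6, Eln, Otulinl and Carmil1. Pappa had a log2 ratio of 2.45 (2.10 to 2.84) in members and 0.88 in the other fibroblasts, and Igfbp2 2.20 (2.06 to 2.34) against -0.12. The 10 lowest were Csmd1, Sparcl1, Krt14, Il6, Krt5, G530011O06Rik, Cpne8, Gm47283, Chsy3 and Fabp4. Il6, an inflammatory cytokine that signals through JAK kinases, stood at 371, 483 and 102 CPM in members of CON, UV and Rux and at 1259, 1136 and 502 in the other fibroblasts, so it was lowest in Rux in both. Krt14, Krt5 and Sparcl1 rested on 1 UV cell for 72.1%, 65.9% and 61.3% of their UMIs in UV members. With the top cell left out of each library, the ratios were -0.63, -0.75 and -1.36, under 2-fold for both keratins.

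Several matrix genes other than fibrillar collagen were lowest in CON members and highest in Rux members. Of 16 measured matricellular genes, 6 were at least 2-fold higher in UV over CON and 0 lower (5.98% and 5.52% of all genes measured), with a median of 0.64, and 5 were higher and 1 lower in Rux over UV (3.6% and 3.47%), with a median of 0.60. In Rux over CON, 10 were higher and 1 lower (5.76% and 4.67%), with a median of 1.12. Postn, or periostin, stood at 187, 628 and 1841 CPM in members of CON, UV and Rux, and at 164, 304 and 822 in the other fibroblasts, in the same order. Ccn2 and Ccn5, secreted CCN proteins, had log2 ratios of 1.89 and 2.08 for UV over CON, where the other fibroblasts had -1.06 and -0.68, and of 1.33 and 1.19 for Rux over UV. Of 17 elastic fibre genes, 4 were at least 2-fold higher and 1 lower in UV over CON and 3 higher and 1 lower in Rux over UV, with medians of 0.25 and 0.39 beside -0.06 and 0.04 for all genes. Eln had log2 ratios of 1.49 (1.32 to 1.66) and 1.87 (1.74 to 2.00) in members against -0.09 and 0.26 in the other fibroblasts. The microfibril gene Mfap5 had 1.80 and 0.54 against 0.49 and 0.42, and the fibrillin gene Fbn1 0.89 and 0.39 against 0.54 and 0.35, so both shared their order with the other fibroblasts. Others did not share this order: Fbln5, which links elastin to cells, had -1.04 and 1.61, and the fibrillin gene Fbn2 1.48 and -1.04, and 11 of the 17 elastic fibre genes were higher in UV than in CON and 13 in Rux than in UV, where in the other fibroblasts 10 and 13 were. Col12a1, which decorates collagen fibrils, stood at 72.8, 307 and 568 CPM against 233, 175 and 186. The fibrillar collagens gave medians of 0.11 and -0.24.

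Several of these genes differed between the kinds of member in Rux. Eln stood at 151 CPM without and 214 with Igfbp2 or Grem1 in CON, 505 and 633 in UV, and 508 and 2503 in Rux. Among members without either gene the Eln level of UV and Rux was thus alike, and the higher Rux sum lay in members with either gene. Split on Igfbp2 alone, Eln stood at 2924 CPM with and 700 without in Rux, and 753 and 495 in UV. Split on Grem1 alone, it stood at 2118 and 1891 in Rux, and 423 and 567 in UV. Postn stood at 219 and 171, 469 and 1031, and 767 and 2228 CPM, and Mfap4, a microfibril-associated protein, at 583 and 377, 1252 and 1073, and 975 and 2361. For Postn in Rux the 2 genes differed: 2652 CPM with Igfbp2 and 753 without, but 1489 with Grem1 and 2047 without. Thbs1, or thrombospondin 1, was higher without in every library, at 622 and 340, 1571 and 1307, and 1259 and 802 CPM. The UV values with either gene rest on 19 cells.

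**Figure D5:**
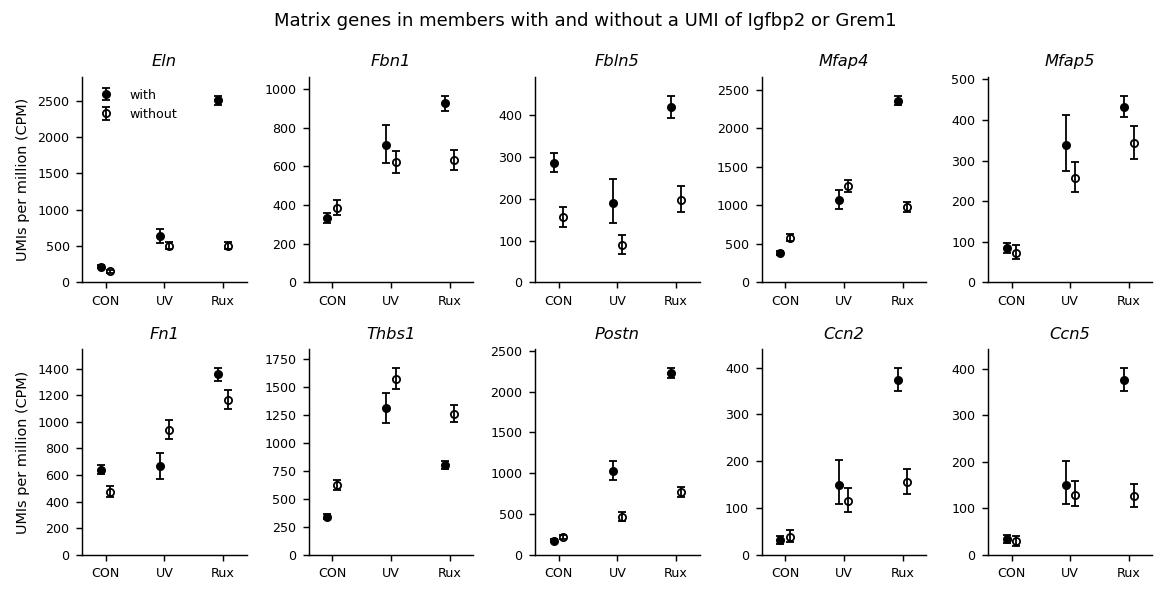
Summed level (CPM, a linear axis from 0 in each panel) of elastic fibre and matricellular genes in members with a UMI of Igfbp2 or Grem1 (filled) and without (open), for CON, UV and Rux, with exact 95% Poisson intervals. Eln reaches 2503 CPM in the filled Rux point and 508 in the open one, and Thbs1 is higher in the open points.

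In the signalling lists, the share of all genes to read the counts against was 5.98% higher and 5.52% lower for UV over CON and 3.6% and 3.47% for Rux over UV. Of 29 genes of the JAK-STAT pathway, 0 were at least 2-fold higher and 1 lower in UV over CON, and 0 higher and 5 lower in Rux over UV, with medians of -0.02 and -0.26. The 5 were Socs3, Socs1, Cish, Stat2 and Stat5a. Socs3, a feedback inhibitor induced by JAK-STAT signalling, stood at 492, 399 and 129 CPM in members of CON, UV and Rux, with log2 ratios for Rux over UV of -1.63 (-1.83 to -1.43) in members and -1.77 in the other fibroblasts. Of 14 interferon-response genes, 1 was at least 2-fold higher and 5 lower in UV over CON, with a median of -0.65. The 5 included Psmb8, an immunoproteasome subunit, at -2.09 (-2.69 to -1.58) in members and -0.40 in the other fibroblasts, and the 1 was Ifi27l2a at 2.34. Of 19 secreted inflammatory genes, 9 were at least 2-fold higher and 1 lower in UV over CON, with a median of 1.00, and 4 higher and 3 lower in Rux over UV, with a median of 0.01. Ccl2, a monocyte chemokine, stood at 558, 1551 and 1397 CPM, below the 2447, 3145 and 3961 of the other fibroblasts in each library. Of 24 immediate early genes, 0 were at least 2-fold higher and 10 lower in UV over CON, with medians of -0.74 in members and -0.81 in the other fibroblasts.

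Of 15 measured genes of the Wnt axis, Cpz included, 4 were at least 2-fold higher and 3 lower in UV over CON (5.98% and 5.52% of all genes), and 6 higher and 1 lower in Rux over UV (3.6% and 3.47% of all genes), with medians of -0.38 and 0.39. Dkk2, a secreted modulator of Wnt signalling, stood at 18.3, 68.5 and 225 CPM in members of CON, UV and Rux and at 23.9, 33.2 and 27.9 in the other fibroblasts. Sfrp2, which binds Wnt proteins, stood at 6.6, 86.3 and 179 CPM against 148, 177 and 94.1, so only the Rux members exceeded the other fibroblasts of their library. Rspo1, a ligand of Lgr5, stood at 57.0, 4.0 and 27.8 CPM, and Wnt5a at 96.1, 36.7 and 75.8, both lowest in UV.

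Markers of other cell types were counted in the same sums. Dcn, a gene of the gate, stood at 12642, 8321 and 9579 CPM and Pdgfra, a fibroblast receptor the rule did not use, at 149, 160 and 264 in members of CON, UV and Rux. The 8 keratinocyte genes summed to 485, 493 and 163 CPM in members and 473, 209 and 221 in the other fibroblasts, led by Krt14 at 124, 242 and 46.1. With the top cell left out of each library, Krt14 stood at 98.9, 69.2 and 44.99 CPM and Krt5 at 58.8, 44.8 and 26.7, so UV was no longer highest. Pericyte and smooth muscle genes summed to 341, 306 and 165 CPM against 72.7, 69.6 and 56.1, led by Ndufa4l2, a gene that also ranks among the 15 above, while Higd1b was at 0 in all members. Of 5 measured, 1, 4 and 1 were at least 2-fold higher in members (4.25%, 4.22% and 4.82% of all genes). At least 2-fold lower were 1, 0 and 2 (5.56%, 4.44% and 3.83%). The median log2 ratios were -0.48, 2.66 and 0.06. Acta2 and Tagln, contractile genes, had log2 ratios of 1.75 and 2.30 for UV over CON, but 1 UV cell held 60.4% and 61.5% of their UMIs in UV members. Without it Acta2 stood at 141 CPM in UV members in place of 348 and Tagln at 98.6 in place of 250, where all CON members had 104 and 50.7. With the top cell left out of each library, the ratios were 1.08 and 1.66. Dermal sheath genes, these 2 included, summed to 227, 890 and 356 CPM against 301, 182 and 173. All 4 measured were at least 2-fold higher in UV over CON (5.98% of all genes), with a median of 2.02 against -0.56. The other measured genes, Myl9 and Mylk, had 1.57 and 1.23 with the top cell left out of each library. Skeletal muscle genes summed to 137, 9.9 and 142 CPM against 74.0, 12.9 and 12.4, led by Acta1 in CON and Rux (56.1 and 52.3 CPM), with Pax7 and Myod1 at 0. Myeloid genes summed to 38.4, 55.6 and 24.4 CPM and endothelial genes to 29.3, 41.7 and 60.6. Adipocyte genes summed to 155, 495 and 367 CPM against 251, 405 and 514, led by Lpl at 125, 359 and 293, with 3, 3 and 1 of the 8 at 0. Erythrocyte genes summed to 3.15, 29.8 and 99.9 CPM against 65.4, 93.6 and 158. Melanocyte genes summed to 77.2, 95.3 and 67.7 CPM against 81.5, 98.4 and 56.1, Schwann cell genes to 18.6, 25.8 and 17.9 against 47.6, 54.7 and 38.3, and dermal papilla genes to 25.8, 9.9 and 9.9 against 21.2, 35.4 and 20.2. Mast cell genes summed to 12.9, 19.85 and 39.9 CPM against 5.88, 41.1 and 23.1. Tnmd, a marker of tendon cells, stood at 218, 243 and 116 CPM against 82.0, 81.6 and 49.7, while Comp was at 0 in members. Their part in the results was not tested.

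Members and other fibroblasts were compared for 8 sets of 3 genes that set other fibroblast groups apart. At least 2 of Dpp4, Smpd3 and Sema3e were carried by 5.62%, 14.3% and 10.1% of members and 13.03%, 33.2% and 24.7% of the other fibroblasts in CON, UV and Rux. At least 2 of Cthrc1, Mdk and Myo16 were carried by 23.6%, 58.6% and 59.8% of members and 4.48%, 9.17% and 19.9% of the others. At least 2 of Coch, Crabp1 and Dkk2 were carried by 4.87%, 10% and 31.2% against 1.26%, 2.48% and 2.49%. For Thbs4, Cilp and Col8a1 the direction differed between libraries, with 8.61%, 21.4% and 30.2% of members against 29.5%, 13.97% and 17.1%. For Ednrb, Lrrc15 and Col11a1 the shares were 2.62%, 10% and 7.41% against 2.62%, 2.91% and 4.74%, and for Saa3, Hp and Lcn2 0.749%, 0% and 5.29% against 0.265%, 2.93% and 10.4%. For Apoe, Gdf10 and Agt the shares were 7.87%, 22.9% and 16.4% against 25.5%, 31.3% and 32.9%. For Arhgap20, Procr and Pla1a they were 10.5%, 24.3% and 31.7% against 14.8%, 38.9% and 34.4%, so close in Rux. The counted shares of both sets were lower in members of each library, and these differences were not tested. The part of the members' greater depth in these shares was not tested.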

How the data were processed

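The authors made the deposited counts with Cell Ranger on mm10 (version 6.1.2 per the labels, 7.0.0 per the file headers): whole-number UMI counts per gene and barcode, 1 matrix for each of the CON, UV and Rux libraries, each from 1 labelled sample. Seurat 5.3.0 is also named in the submitters' processing notes. Counts were read as deposited, with 32285 genes per matrix. Cells were filtered and fibroblasts and members chosen as given above. UMIs were summed over members and over the other fibroblasts of each library, divided by the summed total to give CPM, and compared as log2 ratios with 0.5 UMI added to each count. Genes were ranked when the 2 or more sums compared averaged 50 CPM or above and held 100 UMIs or more, and list genes from 10 CPM. Named were the rule genes, Eln, the 15 highest and 5 lowest genes in members, the 10 at either end of each comparison and genes of the lists described. Members, lists and this rule were chosen with earlier results of these data known. Doublets were scored with Scrublet in scanpy 1.11.5 on Python 3.11.15. The ratio script was tested on simulated counts. Gene positions came from GENCODE and promoter sequences from RefSeq. Alternatives varied the number of rule genes, the collagen gate, depth, doublets, weighting and the count minimum. Depth per library stands above, and a share of 0 allows up to 3 counts.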

Additional observations from a re-analysis of the deposited data

Results flagged for a closer look

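Among genes with a mean of 50 CPM or above and 100 or more UMIs in the member sums compared, 7 differed by at least 2-fold in one direction in members and in the opposite direction in the other fibroblasts; with 1 library per condition these differences were not tested. For UV over CON, the log2 ratio of Ccn2 was 1.89 in members and -1.06 in the other fibroblasts, that of Col8a1 1.81 and -1.5, that of Acta2 1.75 and -1.13, that of Gm13889 1.2 and -1.2, and that of Rorb -2.99 and 1.32. For Rux over UV, the log2 ratio of Fabp4 was -1.95 in members and 1.13 in the other fibroblasts, and that of Map3k5 -1.25 and 1.03. A single UV cell held 60.4% of the Acta2 UMIs and 55.2% of the Fabp4 UMIs of UV members, and without that cell Acta2 stood at 141 CPM in UV (all CON members: 104) and Fabp4 at 47.8 (all Rux members: 26.9), less than 2-fold apart in both. With the top cell left out of each library, the log2 ratios were 1.08 for Acta2 (141 against 66.8 CPM) and -1.15 for Fabp4 (21.5 against 47.8 CPM).

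The Y-linked gene Ddx3y stood at 110, 116 and 122 CPM over the cells that passed the filter in CON, UV and Rux, 3 libraries labelled female.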

How the results depend on the processing

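With 1 library per condition no replicate could be left out, and depth limits the 70 UV members most. No paired analysis was possible because each condition had 1 library. The order of the member share (CON, Rux, UV) held under every alternative tried. In CON, UV and Rux it was 14.5%, 7.89% and 13.3% with at least 2 rule genes, 3.84%, 0.155% and 1.51% with at least 4, 16.5%, 2.36% and 7.30% with a 2% gate, 4.88%, 0.300% and 1.58% after thinning, and 7.07% in CON with a gate on Dcn and Lum.

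The median log2 ratio of fibrillar collagens in members over others was 1.47 (CON) and 1.39 (Rux) with cells weighted equally, 1.34 (CON) without doublets, 1.12, 1.91 and 1.47 with at least 4 rule genes, 1.54 (CON) and 1.49 (UV) with the Dcn and Lum gate, 0.83 (CON) and 1.13 (Rux) with no minimum, and, in members with no Igfbp2 or Grem1, an alternative chosen after seeing the data, 1.35, 1.00 and 0.75. For UV over CON the median was 0.82 with at least 4 rule genes and -0.0766 without Igfbp2 or Grem1. For Rux over UV it was -0.59, -0.44 and, with no minimum, -0.0078. Genes at least 2-fold lower in UV over CON numbered 207 with at least 4 rule genes and 259 at 10 CPM. Genes higher in Rux over UV numbered 199, 165 and, with at least 2 rule genes, 24. Genes lower numbered 119 at 10 CPM and 44 with at least 2 rule genes.

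With at least 4 rule genes, which left 8 UV cells, log2 ratios that were at least 2-fold turned for UV over CON in Igfbp2 (0.64), Cyp26b1 (0.0749), Chrdl1 (-0.0888), Arhgap20 (-0.43), Plac8 (-2.16), Mmp11 (-1.04), Otulinl (0.16), Csmd1 (-0.27) and Sparcl1 (-3.68), and for Rux over UV in Cdkn2a (-0.0700), Cyp26b1 (-0.27), Arhgap20 (1.39), G530011O06Rik (0.44), Sdk1 (0.46), Sulf1 (0.26), Csmd1 (1.49), Sparcl1 (0.78) and Krt14 (0.42). Krt5 turned for Rux over UV without doublets (0.0649). Without the member of most UMIs in the gene in each library, also chosen after seeing the data, Depdc5 turned for Rux over UV (0.50) and Sparcl1 for UV over CON (-0.11), and of named ratios under 2-fold, those of UV over CON turned for Krt14 (0.97 to -0.51) and Krt5 (0.24 to -0.38). Ratios of Rux over UV under 2-fold turned for Col11a1 (-0.44 to 0.11) and Ndufa4l2 (-0.06 to 0.02). In members without Igfbp2 or Grem1, C1qtnf3 (-0.19), Sema3a (-0.0725) and Krt5 (0.81) turned for Rux over UV. The cause was not tested.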
